A study of Homo sapiens with 6 samples.

Results

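The AP-1 transcription factor family was followed in human HaCaT keratinocytes with and without a functional *FGFR2* gene. It comprised 10 of the 21475 genes in the expression tables, taken by gene symbol: the FOS family genes *FOS*, *FOSB*, *FOSL1* and *FOSL2*, the JUN family genes *JUN*, *JUNB* and *JUND*, and the partner genes *ATF3*, *BATF3* and *MAFF*. The genes were chosen by name with measured differences between KO and WT cells already known, that of *FOS* above all, so that the differences of the members are given as a description with no test. RNA of 3 WT and 3 *FGFR2* KO cell lines was sequenced, 1 library per line. HaCaT is a spontaneously immortalized keratinocyte line, and all 6 lines were grown in medium with serum, with no added stimulus given in the labels. Each KO line is a clone expanded from a single sorted cell after cutting of a coding exon of *FGFR2* by Cas9, and carries whatever else distinguishes that clone. The WT lines of the study were the original population and clones of it. For its overview of FGF receptor levels from these RNA data, the study names 3 HaCaT lines, all clonally expanded. Which line each WT replicate was is not given in the labels. The tests below measure the spread between lines.

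AP-1 is a dimer of basic leucine zipper (bZIP) proteins. FOS family proteins pair with JUN family proteins, while JUN proteins can also pair with each other, and the dimers bind a short palindromic DNA element named TRE. *FOS*, *FOSB*, *JUN*, *JUNB* and *ATF3* are immediate early genes, whose RNA is made within minutes of growth factor or stress signals and decays quickly, and FOSL1 is in part a later product of ERK signalling. In epidermis, AP-1 proteins take part in the control of proliferation, wound repair, differentiation and inflammatory gene expression.

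The stretches of DNA just before the start sites of a pair of FOS family and a pair of JUN family genes are shown to set side by side 4 inducible members: *FOS*, whose levels separated the groups, and *FOSB*, *JUN* and *JUNB*, whose levels did not. Each is 150 bases long, read 5′ to 3′ on the gene's own strand from RefSeq GRCh38.p14, and ends at the base before the start that RefSeq annotates. Capitals mark the letters TGACG and the TATA box TATAAA.
FOS, chr14:75278678-75278827, plus strand: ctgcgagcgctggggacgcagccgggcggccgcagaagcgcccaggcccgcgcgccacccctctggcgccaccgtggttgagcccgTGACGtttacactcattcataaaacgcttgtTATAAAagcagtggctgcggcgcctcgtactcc
FOSB, chr19:45467846-45467995, plus strand: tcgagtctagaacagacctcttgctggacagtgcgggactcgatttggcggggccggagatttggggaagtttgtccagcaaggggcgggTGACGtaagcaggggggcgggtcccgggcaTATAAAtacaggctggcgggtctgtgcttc
JUN, chr1:58784048-58784197, minus strand: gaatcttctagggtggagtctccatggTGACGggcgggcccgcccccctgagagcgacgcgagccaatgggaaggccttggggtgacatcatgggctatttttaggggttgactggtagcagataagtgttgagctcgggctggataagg
JUNB, chr19:12791336-12791485, plus strand: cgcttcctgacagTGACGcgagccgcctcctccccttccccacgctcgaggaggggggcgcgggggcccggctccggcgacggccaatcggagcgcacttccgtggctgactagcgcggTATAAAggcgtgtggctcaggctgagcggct
In *FOS* the letters TGACG stand at -64 and TATAAA at -33 from the start. *FOSB* has a like arrangement, with TGACG at -60 and TATAAA at -30. *JUNB* has TATAAA at -31 as well, but its TGACG lies farther away, at -137, and *JUN* has TGACG at -123 and no TATAAA in this window.

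Promoter windows of 300 bases (250 before and 50 after the start) were found for 8 of the 10 members, as 10 windows, and *FOSL1* and *BATF3* were not among them. TATAAA was in 4 of the 10 windows, belonging to *FOS*, *FOSB*, *JUNB* and *ATF3*, against 11.5% of all 35116 promoter windows. The TRE, TGACTCA or TGAGTCA on either strand, was in 1 of the 10, that of *FOSL2*, against 4.95% of all. The cyclic AMP response element CRE, which is TGACG followed by TCA, was in 2 of the 10, those of *JUND* at -200 and *MAFF* at -54, against 1.85% of all. No window held the full CArG box, the element bound by serum response factor, which 1.29% of all windows held. The shorter TGACG, which lies within the CRE and was searched on both strands after the windows had been seen, was in 7 of the 10, against 24.6% of all. It was in each of the 6 windows of FOS and JUN family genes. These matches describe letters in fixed windows and not binding, and an element farther from the start, or one that departs from the full motif, was not searched.

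The libraries held an estimated 67700000 to 87800000 fragments, so that 1 fragment on a transcript of 1 kb was worth 0.0114 to 0.0148 FPKM, the unit of all levels below (fragments normalized for transcript length and library depth, as deposited by the authors). *FGFR2*, the targeted gene, had 21.6, 39.7 and 15.0 FPKM in the 3 WT libraries and 3.04, 2.26 and 4.31 FPKM in the KO libraries. The KO mean was 12.6% of the WT mean without overlap of the groups, and the log2 difference was -2.73 (SE 0.36). Its adjusted p in limma was 0.261, and an exact permutation test over the 6 libraries, two-sided, gave p = 0.1, below which 3 against 3 cannot go. Over all 12241 genes tested by limma, 0 (0%) were called at an adjusted p of at most 0.05 and a log2 difference of at least 0.5 in size. At an unadjusted p of at most 0.05, 1536 genes (12.5%) passed, of which 1251 (10.2%) were higher and 285 (2.33%) lower in KO, and without KO replicate 3 these were 535 and 95. Leaving out any other single library gave 766 to 1747 higher and 160 to 509 lower. With all 6 libraries the split was 929 to 400 with scaling to nuclear genes, 817 to 488 with median-of-ratios scaling and 806 to 500 with quantile normalization. With library weights limma called 1396 genes (11.4%), in a fit where WT replicate 1 carried 89.7% of the weight of its group.

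The share of mitochondrial transcripts was 27.6%, 21.5% and 22.2% in WT and 15.8%, 23.7% and 11.9% in KO. Beyond the scaling to nuclear genes, its part in the results was not tested. All 8 keratinocyte markers were expressed, with *KRT5* at 6090 to 14800 FPKM, and their summed level was 10570 to 16810 FPKM in WT and 13920 to 25370 FPKM in KO. Of 7 fibroblast markers 5 had a mean under 0.5 FPKM, and the sum was 7.99 to 33.2 FPKM in WT and 6.92 to 12.6 FPKM in KO, with *DCN* at 15.5 FPKM in WT replicate 2 and at most 1.66 FPKM elsewhere. The 5 melanocyte markers summed to 0.881 to 2.44 FPKM in WT and 0.708 to 1.07 FPKM in KO, with *SOX10* at 0 in all libraries and *PMEL* carrying nearly the whole sum. The 4 immune markers summed to 11.7 to 20.7 FPKM in WT and 4.50 to 11.0 FPKM in KO, which was nearly all *CD68*, while *PTPRC* was at most 0.153 FPKM. The 3 endothelial markers summed to 18.2 to 27.2 FPKM in WT and 5.82 to 17.5 FPKM in KO, mostly *VWF*, and *CDH5* reached 4.92 FPKM in WT replicate 2. Of the markers with a mean of at least 0.5 FPKM, *CD68*, *VWF* and the keratinocyte marker *CDH1* were lower in every KO than in every WT library. Among all genes tested this held for 5.77%. The part of these markers in the results was not tested. All libraries are of cultured HaCaT lines, so these are RNA levels in a keratinocyte line and not counts of cell types.

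In WT cells the family was led by *JUNB*, *FOSL2* and *JUND*. On the FPKM scale, which is per transcript length, *JUNB* had 78.2 to 88.5, *FOSL2* 66.2 to 79.8 and *JUND* 36.1 to 50.1, and the ranges of *JUNB* and *FOSL2* overlapped while both lay above *JUND*. *FOSL1* followed with 6.25 to 8.50 FPKM, below every *JUND* value and above every value of the remaining members. *MAFF*, *JUN*, *ATF3*, *FOSB* and *FOS* had mean levels of 3.42, 2.80, 2.62, 2.38 and 1.80 FPKM in this order, and neighbours in it overlapped between libraries. *BATF3* was near the limit of detection, at 0.0194, 0 and 0.0110 FPKM in WT and 0.00896, 0.0110 and 0 FPKM in KO, under what 3 fragments on 1 kb would give (0.0342 to 0.0443 FPKM). BATF3 is a partner of JUN proteins best known from dendritic cells. It did not reach the mean of 0.5 FPKM required for the comparison, which left 9 of the 10 members.

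In the plot of levels by gene the groups separated for 2 of the 9 members, *FOS* and *FOSL1*, both higher in KO. Among all genes tested, 24.1% did not overlap in either direction and 18.3% had every KO library above every WT library. Since the members were named from this contrast, nothing is read from this count, and no call or p is given for a member. By the sign of the fitted difference 6 members were higher and 3 lower in KO, with a median log2 difference of 0.14 over the 9, beside 0.09 over all genes.

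*FOS*, the founding partner of JUN and the typical immediate early gene, lies on chr14:75278826-75282230 (GRCh38, plus strand; ENSG00000170345). It had 1.41, 2.25 and 1.75 FPKM in WT and 6.39, 5.04 and 6.59 FPKM in KO. The lowest KO library thus stood at more than the highest WT library, and the KO lines lay closer together, by ratio, than the WT lines did (highest to lowest 1.31 against 1.60). The means were 1.80 ± 0.423 and 6.01 ± 0.841 FPKM (SD, n = 3 each), a ratio of 3.33 and a log2 difference of 1.51 (SE 0.21). Leaving out each library in turn gave 1.38 to 1.64. *FOS* was the lowest of the 9 members by mean in WT, while in KO each of its values exceeded every KO value of *FOSB*, *ATF3* and *MAFF*.

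*FOSL1* encodes FRA1, a FOS family protein without the strong activation domain of FOS. The gene lies on chr11:65892049-65900573 (minus strand; ENSG00000175592). Its levels were 6.25, 6.45 and 8.50 FPKM in WT and 19.3, 17.8 and 40.3 FPKM in KO, so that KO replicate 3 was at more than the sum of the other 2 KO libraries and those were still above all WT libraries. The means of 7.07 ± 1.25 and 25.8 ± 12.6 FPKM (SD, n = 3) gave a ratio of 3.65, and a ratio of 2.63 without KO replicate 3. The log2 difference was 1.71 (SE 0.31), 1.34 without KO replicate 3 and at most 1.92 when another library was left out.

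*FOSL2* encodes FRA2 and supplied most of the FOS family RNA in WT. It lies on chr2:28392448-28417317 (plus strand; ENSG00000075426). With 75.9, 66.2 and 79.8 FPKM in WT and 73.8, 66.2 and 40.6 FPKM in KO, the groups overlapped, and KO replicate 3 alone stood below the WT range. The log2 difference of -0.34 (SE 0.23) was -0.08 without KO replicate 3.

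*FOSB*, which like FOS is an activating partner and is made in a full and a shortened form, lies on chr19:45467995-45475179 (plus strand; ENSG00000125740). It had 2.36, 2.90 and 1.88 FPKM in WT and 1.98, 2.59 and 1.02 FPKM in KO. The groups overlapped, with KO replicate 3 again lowest. The log2 difference was -0.33 (SE 0.30), and it was -0.04 without KO replicate 3, -0.20 without WT replicate 2 and -0.55 without KO replicate 2. The fitted difference was thus negative for *FOSB*, with overlapping groups, and positive for *FOS*. Both are immediate early genes with TGACG and TATAAA at like distances from the start, as printed above. A part of these letters in the levels was not tested.

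The levels of the 4 FOS family genes added up to a similar total in each line. The summed FPKM was 85.9, 77.8 and 92.0 in WT and 101, 91.6 and 88.5 in KO, or 85.2 ± 7.12 and 93.7 ± 6.51 (SD, n = 3), with overlapping groups. *FOSL1* was 7.27%, 8.29% and 9.24% of it in WT and 19.0%, 19.4% and 45.5% in KO. *FOS* was 1.64%, 2.89% and 1.91% in WT and 6.30%, 5.51% and 7.44% in KO. Both shares were higher in every KO than in every WT library, and as shares within a library they do not depend on how libraries are scaled. *FOSL2* made up the rest for the most part, with 88.3%, 85.1% and 86.8% in WT and 72.7%, 72.2% and 45.9% in KO, lower in every KO library. A share falls where the others rise, and the levels of *FOSL2* themselves overlapped between the groups. These shares, and the ratio that follows, restate the *FOS* and *FOSL1* levels given above, and nothing further is read from their separation. The ratio of *FOSL2* to *FOSL1* was 12.1, 10.3 and 9.39 in WT and 3.82, 3.72 and 1.01 in KO, which means that in KO replicate 3 the FRA1 and FRA2 transcripts were about equal on the FPKM scale. *FOSB* stayed a small part, at 2.05% to 3.73% in WT and 1.16% to 2.83% in KO.

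**Figure D1:**
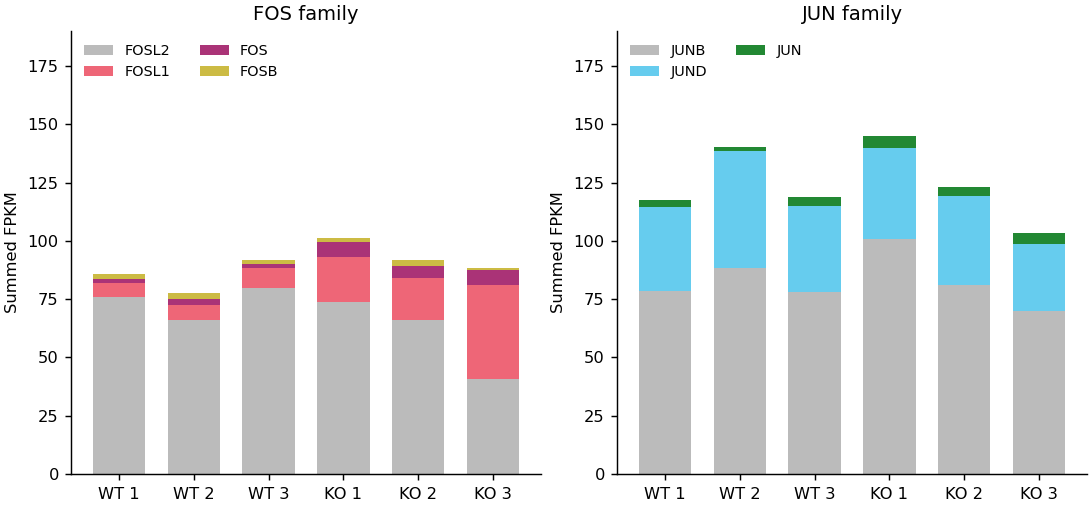
Summed FPKM of the FOS family (left) and the JUN family (right) in each library, stacked by gene. The *FOSL1* and *FOS* segments are larger in each KO bar than in any WT bar while the height of the FOS family bars runs from 77.8 to 101, and *JUNB* is the largest JUN family segment in all 6 libraries.

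Among the JUN family, *JUN* encodes the most strongly activating member, and its product switches on its own gene. It lies on chr1:58776845-58784048 (minus strand; ENSG00000177606). *JUN* had 2.78, 1.76 and 3.86 FPKM in WT and 5.47, 3.80 and 4.60 FPKM in KO, and the groups overlapped by the narrow margin between WT replicate 3 and KO replicate 2. The mean was 2.80 ± 1.05 FPKM in WT and 4.62 ± 0.837 FPKM in KO (SD, n = 3), a log2 difference of 0.67 (SE 0.27) that was 0.42 without WT replicate 2. *JUN* varied most among the WT lines of the 9 members, with a coefficient of variation of 37.5%.

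*JUNB*, which in epidermis restrains proliferation and inflammation, was the most abundant member in both groups by mean. It lies on chr19:12791486-12793315 (plus strand; ENSG00000171223). The levels were 78.6, 88.5 and 78.2 FPKM in WT and 101, 81.3 and 69.9 FPKM in KO, and the KO libraries lay on both sides of the WT range. The log2 difference of 0.03 (SE 0.16) changed sign with scaling to nuclear genes (-0.05), median-of-ratios scaling (-0.07), quantile normalization (-0.10) and without KO replicate 1 (-0.11). Of the exonic bases of *JUNB*, 259 (14.2%) overlap exons of *HOOK2* on the other strand; the library kit keeps strand, but whether the quantification used it is not stated in the sources used here.

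*JUND*, the JUN family gene that is expressed without stimulation in most cells, lies on chr19:18279694-18281622 (minus strand; ENSG00000130522). It had 36.1, 50.1 and 37.0 FPKM in WT and 38.7, 37.9 and 28.8 FPKM in KO. The groups overlapped, with WT replicate 2 highest and KO replicate 3 lowest. The log2 difference was -0.22 (SE 0.19), -0.07 without WT replicate 2, -0.08 without KO replicate 3 and 0.01 with library weights.

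The JUN family sum was 117, 140 and 119 FPKM in WT and 145, 123 and 103 FPKM in KO, or 125 ± 12.7 and 124 ± 21.0 (SD, n = 3). *JUNB* was 63.1% to 66.9% of it in WT and 66.1% to 69.6% in KO, *JUND* was 30.7% to 35.7% and 26.6% to 30.8%, and *JUN* was 1.25% to 3.24% and 3.09% to 4.46%, each with overlapping groups. The JUN family sum exceeded the FOS family sum in each library, by a ratio of 1.29 to 1.80 in WT and 1.17 to 1.43 in KO.

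Among the partners, *ATF3*, a stress-induced bZIP gene whose product pairs with JUN proteins, lies on chr1:212565334-212620777 (plus strand; ENSG00000162772). Its levels were 2.0, 3.52 and 2.33 FPKM in WT and 3.36, 3.75 and 1.82 FPKM in KO. KO replicate 3 was the lowest and KO replicate 2 the highest of the 6, so that the KO lines enclosed the WT lines. The log2 difference of 0.14 (SE 0.30) was 0.41 without KO replicate 3, -0.03 without KO replicate 2 and 0.51 with library weights. *BATF3* lies 65.6 kb from *ATF3* on the same chromosome, at chr1:212686417-212699840 (minus strand; ENSG00000123685), and was near 0 in the same libraries.

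*MAFF*, a small MAF protein gene, is the member that belongs to neither the FOS nor the JUN or ATF lines. Its product has no activation domain of its own. It lies on chr22:38200767-38216507 (plus strand; ENSG00000185022) and shares 326 exonic bases (5.81%) with *PLA2G6* on the other strand. *MAFF* had 3.21, 3.64 and 3.42 FPKM in WT, the narrowest relative spread of the 9 members (6.38%), and 4.63, 3.09 and 4.11 FPKM in KO. The groups overlapped because KO replicate 2 was below all WT libraries, and the log2 difference of 0.17 (SE 0.19) was 0.054 without KO replicate 1, 0.31 without KO replicate 2, 0.31 with library weights and 0.082 with median-of-ratios scaling.

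**Figure D2:**
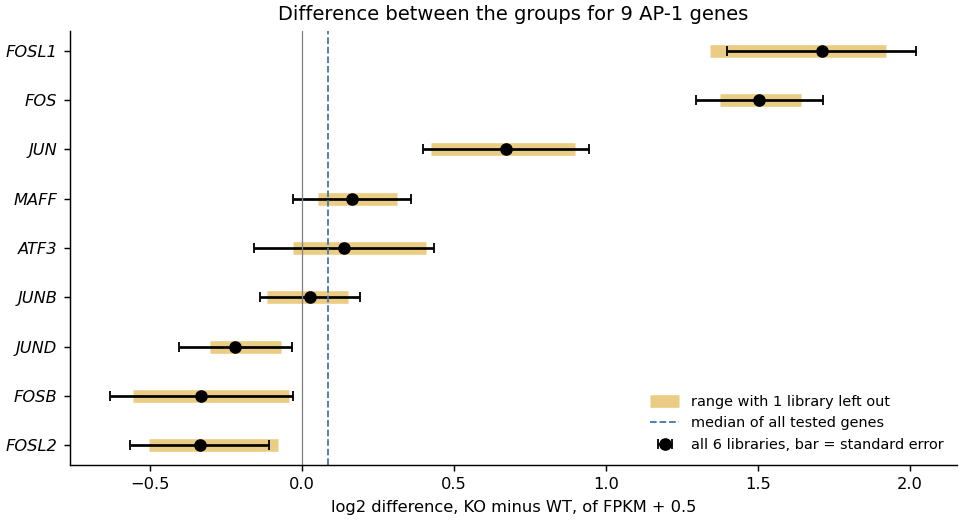
Log2 difference of FPKM + 0.5, KO minus WT, for the 9 AP-1 genes above the filter (points, with the standard error as bars), the range when each library in turn is left out (shaded), and the median of all tested genes (dashed line). *FOSL1* at 1.71 and *FOS* at 1.51 lie farthest to the right, and the shaded ranges of *ATF3* and *JUNB* reach both sides of 0.

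KO replicate 3 held the extreme value for most members, as the plot of levels by gene shows. It was the lowest of the 6 libraries for 5 of the 9 members (*FOSB*, *FOSL2*, *JUNB*, *JUND* and *ATF3*) and the highest for 2 (*FOS* and *FOSL1*). The same library was lowest for 20.3% and highest for 38.7% of all genes tested, and it had the lowest mitochondrial share, whose part was not tested. The *FOS* ratio was 3.33 with and 3.17 without this library, while the *FOSL1* ratio was 3.65 with and 2.63 without it.

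The other bZIP genes related to AP-1 were mostly lower in KO by sign. Of 11 such genes 9 were tested, 0 were called by limma (at an unadjusted p, 1 lower, *MAF*, beside 10.2% higher and 2.33% lower among all genes), 2 had a positive and 7 a negative difference, and the median log2 difference was -0.20, or -0.089 without KO replicate 3 and -0.34 without KO replicate 2, beside 0.09 over all genes. *MAF*, a large MAF transcription factor gene, had the largest difference, with 13.5, 8.98 and 11.7 FPKM in WT and 7.05, 4.82 and 0.901 FPKM in KO. Every KO library was below every WT library, KO replicate 3 by far the lowest, and the log2 difference of -1.62 (SE 0.57, adjusted p = 0.261 with limma) was -0.89 without that library. *JDP2*, a repressing partner of JUN encoded 145.5 kb from *FOS*, had a log2 difference of -0.27 (SE 0.23, adjusted p = 0.549), which was -0.14 without WT replicate 2, -0.42 without KO replicate 1, -0.055 without KO replicate 3 and 0.007 with library weights. *MAFG*, a small MAF gene like *MAFF*, was the gene of this list with higher levels in every KO library, at a log2 difference of 0.22 (0.10 with quantile normalization). Across all genes 18.3% lay above WT and 5.77% below WT in every KO library. *BATF* and *BATF2* did not reach the filter.

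Kinases and transcription factors that act on the AP-1 genes lay close to the middle of all genes. All 23 were tested, 0 were called by limma (at an unadjusted p, 1 higher, *MAP2K4*, beside 10.2% of all genes higher and 2.33% lower), and 14 were higher and 9 lower in KO. The median log2 difference was 0.02 and changed sign with nuclear scaling (-0.052), median-of-ratios scaling (-0.066), quantile normalization (-0.084) and library weights (-0.027). Every KO library lay above every WT library for 2 of the 23 and below for 2, against 18.3% and 5.77% of all genes. *MAP2K4*, a kinase above JNK, had 27.8, 25.7 and 31.2 FPKM in WT and 36.1, 34.8 and 51.0 FPKM in KO, without overlap. Its log2 difference was 0.50 (SE 0.18, adjusted p = 0.261 with limma), or 0.33 without KO replicate 3. *MAP2K1*, which encodes MEK1 above ERK, had a log2 difference of 0.47 (SE 0.21, adjusted p = 0.308) with overlapping groups. *MEF2D*, an activator of the *JUN* promoter, was lower in every KO library, with a log2 difference of -0.39 (SE 0.18, adjusted p = 0.314) and of -0.22 without KO replicate 3. *CREB1* was also lower in every KO library, by a log2 difference of -0.15, which was -0.063 without WT replicate 1 and -0.26 with quantile normalization. *SRF*, whose product binds the serum response element of *FOS*, had 12.0 to 13.9 FPKM in WT and 11.6 to 13.7 FPKM in KO.

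Among 10 genes that govern the decay of AP-1 transcripts and proteins, 0 were called by limma (at an unadjusted p, 2 higher, *ELAVL1* and *KHSRP*, beside 10.2% of all genes higher and 2.33% lower), and 5 were higher and 5 lower. The median log2 difference was -0.01 and was above 0 with TPM scaling (0.024), with library weights (0.034) and without some single libraries (up to 0.060). The groups were apart with KO higher for 3 of the 10 and with KO lower for 1, against 18.3% and 5.77% of all genes. The genes with the largest differences all encode proteins that bind AU-rich elements in RNA. *ELAVL1*, the gene of the stabilizing protein HuR, had 30, 28.2 and 33.6 FPKM in WT and 41.4, 39.5 and 59.6 FPKM in KO. *KHSRP* and *HNRNPD*, whose products favour decay, were also higher in each KO than in each WT library. The log2 differences were 0.59 (SE 0.18), 0.50 (SE 0.17) and 0.43 (SE 0.18), with adjusted p of 0.261, 0.261 and 0.292 in limma, and that of *HNRNPD* was 0.28 without WT replicate 2. *FBXW7*, a ubiquitin ligase component that acts on JUN, was the gene of the list with every KO library below WT, at a log2 difference of -0.33, or -0.20 without KO replicate 3. *ZFP36*, which encodes the destabilizing protein tristetraprolin, had 13.5 to 15.5 FPKM in WT and 11.5 to 15.8 FPKM in KO.

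Genes known as AP-1 targets in keratinocytes did not share a direction. Of 23 genes 16 were tested, 0 were called by limma (at an unadjusted p, 4 higher and 2 lower, beside 10.2% and 2.33% of all genes), 9 were higher and 7 lower in KO, and the median log2 difference of 0.06 changed sign under some scalings, down to -0.03. *MMP1*, the interstitial collagenase gene and a textbook target with a TRE in its promoter, had 0.493, 0.452 and 0.881 FPKM in WT and 2.09, 2.33 and 6.40 FPKM in KO. The groups did not overlap, the ratio of means was 5.93, or 3.63 without KO replicate 3, and the log2 difference was 1.76 (SE 0.40, adjusted p = 0.261 with limma), or 1.31 without that library. With WT levels near the added 0.5 FPKM, this difference was 2.25 when 0.1 was added instead and 1.407 when 1 was added. *TIMP1*, *AREG* and *EZR* were also higher in every KO library, by log2 differences of 0.59, 0.69 and 0.15, and that of *AREG* was 0.45 without KO replicate 3 and that of *EZR* 0.056 with median-of-ratios scaling. With *MMP1* these were 4 of 16 genes, against 18.3% of all genes. *PLAU*, the urokinase gene, was lower in every KO library (-1.13, SE 0.40), and this was -0.72 without WT replicate 2, which had 98.8 FPKM. It was the only gene of the 16 to be so, against 5.77% of all genes.

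Differentiation genes on the target list were uneven between lines. *IVL*, which encodes involucrin of the cornified envelope, had 338, 324 and 180 FPKM in WT and 79.7, 265 and 81.8 FPKM in KO. KO replicate 2 lay within the WT range and the other 2 KO lines below it, with a log2 difference of -1.17 (SE 0.48, adjusted p = 0.285). *SPRR1A*, another envelope precursor gene, had 96.8, 128 and 141 FPKM in WT and 222, 42.5 and 5.22 FPKM in KO. The KO lines thus spanned both sides of the WT lines, and the log2 difference of -1.67 (SE 1.13, adjusted p = 0.463) was -0.31 without KO replicate 3, -2.95 without KO replicate 1 and -0.23 with library weights. The 7 genes under the filter included *MMP3*, *MMP10* and *IL6*, which had at most 0.846 FPKM in any library. Each of these was higher in every KO than in every WT library, as were 18.3% of the tested genes. *MMP10* had 0.107 to 0.252 FPKM in WT and 0.281 to 0.846 FPKM in KO, while *MMP3* and *IL6* were at or near 0 in WT. The groups overlapped for the others, *MMP9*, *LORICRIN*, *CSF2* and *VIM*.

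Of 12 immediate early genes outside the AP-1 family 10 were tested, 0 were called by limma (at an unadjusted p, 4 higher and 1 lower, beside 10.2% and 2.33% of all genes), 7 were higher and 3 lower, and the median log2 difference was 0.08, which was 0.40 without WT replicate 2 and just under 0 with median-of-ratios scaling. *IER3* had 12.5, 9.56 and 16.2 FPKM in WT and 33.3, 18.7 and 35.9 FPKM in KO, without overlap. Its log2 difference was 1.14 (SE 0.29, adjusted p = 0.261 with limma). *CCN1*, which encodes a matricellular protein, had a log2 difference of 0.85 (SE 0.34, adjusted p = 0.284), or 0.49 without KO replicate 3. *BTG2*, an antiproliferative gene, had one of -1.02 (SE 0.37, adjusted p = 0.261), or -0.65 without KO replicate 3. *EGR1*, induced through the same serum response factor as *FOS*, had 5.21, 6.75 and 9.51 FPKM in WT and 14.9, 9.30 and 14.2 FPKM in KO, with KO replicate 2 just inside the WT range. *MYC* was, with *IER3*, the gene of this list without overlap, at a log2 difference of 0.80, so that 2 of the 10 had every KO library above WT, against 18.3% of all genes. For *MYC* the margin was narrow, as WT replicate 2 and KO replicate 2 both rounded to 29.3 FPKM. *DUSP1* had 2.11 to 2.65 FPKM in WT and 2.42 to 2.53 FPKM in KO.

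The plot of the related lists shows each list median within the grey band, and single genes such as *MMP1*, *IER3*, *MAF* and *SPRR1A* beyond it. The lists were written with earlier results of these data known, and nothing beyond these counts is drawn from them.

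The genes with profiles most like that of *FOS* over the 6 libraries were sought among the 12240 other tested genes, by the root mean square difference of log2(FPKM + 0.5) after centring each gene on its mean. The nearest 5 were *MAGED1* (0.26), *ADA* (0.27), *XRCC3* (0.27), *PRKACB* (0.28) and *GNG4* (0.28). Like *FOS*, each had higher levels in all KO than in all WT libraries. KO replicate 2 was the lowest KO library for *FOS*, *XRCC3* and *PRKACB*, but the highest library for *MAGED1*. For *FOSL1*, sought after its values had been seen, the nearest were *CAD* (0.09), *BOP1* (0.12), *MMP1* (0.12), *PUS7* (0.15) and *PDCD2L* (0.15). The place of *MMP1* rests on the added 0.5, as its WT levels were 0.452 to 0.881 FPKM. With 0.1 or 1 added instead, its log2 difference was 2.25 or 1.407, against 1.765 or 1.647 for *FOSL1*. The best match of *FOSL1* was closer than that of *FOS*, and all 5 had their highest level in KO replicate 3, as *FOSL1* did. Genes picked for a like profile share such traits by the way they were picked. Among all genes tested, KO replicate 3 was the highest library for 38.7%, and 18.3% had every KO library above every WT library. No AP-1 member was among the 5 nearest genes of *FOS* or of *FOSL1*. These distances describe 6 libraries of 2 groups and were not tested.

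**Figure D3:**
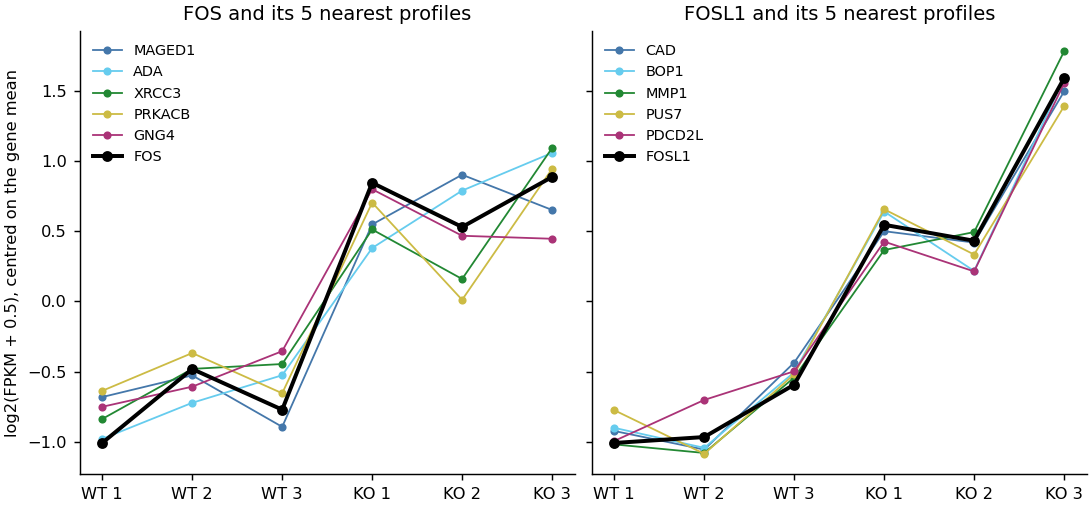
Log2(FPKM + 0.5), centred on each gene's mean, in the 6 libraries for *FOS* (left, black) and *FOSL1* (right, black) with the 5 tested genes of most similar profile (coloured). All curves are higher in each KO library than in each WT library, and *FOSL1* and its 5 nearest genes all peak in KO replicate 3, as do *ADA*, *XRCC3* and *PRKACB* beside *FOS*. The coloured genes were picked for this likeness.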

How the data were processed

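RNA of 3 WT and 3 *FGFR2* KO HaCaT lines was analysed from the FPKM values per gene that the authors deposited. Per the submitters' processing notes, reads were trimmed with fastp 0.20.0 and quantified with kallisto 0.46.1 on GRCh38.p13; how FPKM was calculated is not given in the sources used here, and the study itself tested estimated counts with DESeq2. Of 21493 listed genes, 18 pseudoautosomal Y copies were left out. GENCODE release 44 gave symbols and GRCh38 positions. Depth (67700000 to 87800000 fragments) was estimated from the steps between low values. No batch is given in the labels.

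The 12241 genes whose mean reached 0.5 FPKM entered a limma fit (version 3.58.1, R 4.3.3) of log2(FPKM + 0.5), unscaled, with a mean-variance trend and Benjamini-Hochberg adjustment. All log2 differences are KO minus WT on this scale, which understates differences of low genes. A call needed an adjusted p of at most 0.05 and a log2 difference of at least 0.5 in size. The script was tested on simulated data. Alternatives were other pseudocounts, filters, scalings, empirical Bayes steps, library weights, the replicate number as a block and leaving out each library.

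The members and lists were chosen with earlier results of these data known. Named genes are the members, *FGFR2*, the 3 tested genes of each list with the largest differences (some are not reported here), and the 5 profiles nearest to *FOS*; other genes were chosen after their values were seen, as were the TGACG search and the profiles nearest to *FOSL1*. Promoter windows are from RefSeq GRCh38.p14.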

Additional observations from a re-analysis of the deposited data

How the results depend on the processing

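With library weights, 1396 genes were called instead of 0, the median log2 difference of the members was 0.31 and that of immediate early genes outside AP-1 was 0.45, *FOS* was at 1.75, and *FGFR2* was called at -2.66 (limma, adjusted p = 0.0191); the other alternatives called 0 genes, with a smallest adjusted p of 0.0925 without WT replicate 2. These weights rest mainly on WT replicate 1. With quantile normalization the median of kinases and activators was -0.084. Without WT replicate 2 the median of immediate early genes outside AP-1 was 0.40. Leaving out each library in turn gave 0 called genes throughout, a median of the members of 0.00 to 0.21, and *FGFR2* at -3.05 to -2.36. The list medians were then 0.032 to 0.40 for immediate early genes, 0.00 to 0.08 for kinases and activators, -0.34 to -0.09 for other bZIP genes, -0.07 to 0.06 for turnover genes and 0.01 to 0.23 for target genes. The log2 ratio of family sums was 0.08 to 0.20 for FOS and -0.15 to 0.10 for JUN. At an unadjusted p, 535 genes were higher and 95 lower without KO replicate 3, against 1251 and 285 with all libraries. Without any other single library these were 766 to 1747 and 160 to 509. The cause was not tested. The replicate numbers of the labels did not pair the samples (correlations of same-numbered deviations -0.21, 0.23 and 0.05); with the replicate number as a block 0 genes were called, the smallest adjusted p was 0.0972 and *FOS* stayed at 1.51. Depth limits what can be said of *BATF3*, which lay under 3 fragments on 1 kb in each library.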
